A study of Homo sapiens with 6 samples.

Results

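The hypoxia pathway was followed through 10 genes: the oxygen-regulated subunits HIF1A and EPAS1, the prolyl hydroxylases EGLN1 and EGLN3, the ubiquitin ligase receptor VHL, and the target genes STC1, ADM, NDRG1, BNIP3 and ANKRD37. They were chosen by name, with earlier results of these data known. All 10 were among the 21631 symbols of the count table and among the 16910 genes that passed the filter on low counts. RNA was sequenced from A-375, an established human melanoma line, in 3 libraries labelled SEPHS2 knockout, made from cells with a guide RNA against SEPHS2, and 3 control libraries, made from cells with a control guide. SEPHS2 makes the selenophosphate needed for selenocysteine, and the groups were set up to show which mRNAs change in its absence. No oxygen level, treatment or time is given for either group, nor whether the replicates were separate cultures or clones, and the p-values therefore reflect spread among these libraries alone, which may be technical.

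In the libraries labelled knockout, STC1, EPAS1, VHL and EGLN1 fell, ADM rose, and HIF1A, EGLN3, NDRG1, BNIP3 and ANKRD37 did not pass the test. The falls reached from 0.828-fold for EGLN1 to 0.437-fold for STC1, and ADM rose 1.33-fold. These 5 called genes of 10 stand beside 45.4% called among all tested genes, with 22% higher and 23.4% lower, so the share called is near the background. With a smooth trend of fold change against exon length and GC content removed, 5283 genes were higher and 2473 lower among 15302 tested. Without that step the numbers were 3723 and 3950 among 16910. The 10 genes again gave 1 higher and 4 lower, but HIF1A was now among the lower (-0.11, edgeR adjusted p = 0.0319). EGLN1 no longer was (-0.20, edgeR adjusted p = 0.117). The groups did not overlap for STC1, EPAS1, VHL, EGLN1 and ADM, 5 of the 10, against 52.1% of all tested genes. The median log2 fold change of the 10 genes was -0.10, and that of all tested genes 0.01.

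Cells sense oxygen through the alpha subunits of the hypoxia-inducible factors. In normal oxygen the EGLN enzymes hydroxylate prolines of these subunits, VHL binds the hydroxylated form, and the ligase built around it marks the subunit for destruction. In low oxygen the subunit persists, pairs with ARNT and binds short DNA elements with the core letters ACGTG or GCGTG, turning on genes of glucose use, blood vessel growth and mitochondrial turnover. Control of the factor is therefore largely at the protein level, which mRNA counts do not measure. In melanoma the pathway is also studied for its link to MITF, the melanocyte regulator.

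Depth was 34606145 to 43405579 counted reads per library, lowest in knockout replicate 1. SEPHS2 mRNA was not lower in the libraries labelled knockout, at 170, 177 and 172 CPM (reads scaled to library size with TMM factors), against 158, 152 and 157 CPM in controls (log2 fold change 0.15, edgeR adjusted p = 0.00401). Counts per gene carry no information on edits within the coding sequence, so each direction below rests on the labels. Of 8 melanocyte lineage markers, SOX10 and MITF were called lower (edgeR adjusted p = 0.0164 and 1.24e-04). S100B, PMEL and MLANA did not pass, with log2 fold changes of -0.03, 0.0031 and 0.14 (edgeR adjusted p = 0.709, 0.995 and 0.682). SOX10 averaged 569 ± 13 CPM in the libraries labelled knockout and 619 ± 15.6 CPM in controls, and MITF 18.5 ± 0.668 CPM in the libraries labelled knockout and 23.5 ± 1.30 CPM in controls (SD, n = 3 each), whereas TYR, DCT and TYRP1 were under 1 CPM in all 6 libraries. Summed fibroblast markers, carried mostly by PDGFRB, were 48.3 to 54.6 CPM in the libraries labelled knockout and 73.2 to 74.9 CPM in controls, with 1 marker called higher (LUM, 0.76 on the log2 scale, edgeR adjusted p = 2.16e-05) and 3 of 6 lower. Summed endothelial markers, mostly PECAM1, were 8.29 to 9.38 CPM in the libraries labelled knockout and 9.79 to 10.4 CPM in controls. TEK was called lower, at 0.359 CPM in the libraries labelled knockout and 0.750 CPM in controls (-1.04, edgeR adjusted p = 0.0314). PECAM1, VWF and KDR did not pass, at -0.22, -0.35 and 0.23 (edgeR adjusted p = 0.160, 0.406 and 0.350). Immune markers, mostly LYZ, summed to 6.52 to 7.20 CPM in the libraries labelled knockout and 3.42 to 4.38 CPM in controls, and epithelial markers to 2.00 to 2.55 CPM in the libraries labelled knockout and 0.902 to 1.83 CPM in controls. Of the epithelial markers KRT14 was called higher, whereas EPCAM averaged 0.525 CPM in the libraries labelled knockout and 0.603 CPM in controls, and CDH1 0.264 CPM in the libraries labelled knockout and 0.394 CPM in controls. CD3E, MS4A1, KRT5 and KRT19 are not listed in the table, and the part of these markers in the results below was not tested. In bulk RNA, fewer cells expressing a gene and less of its RNA per cell cannot be told apart.

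**Figure D1:**
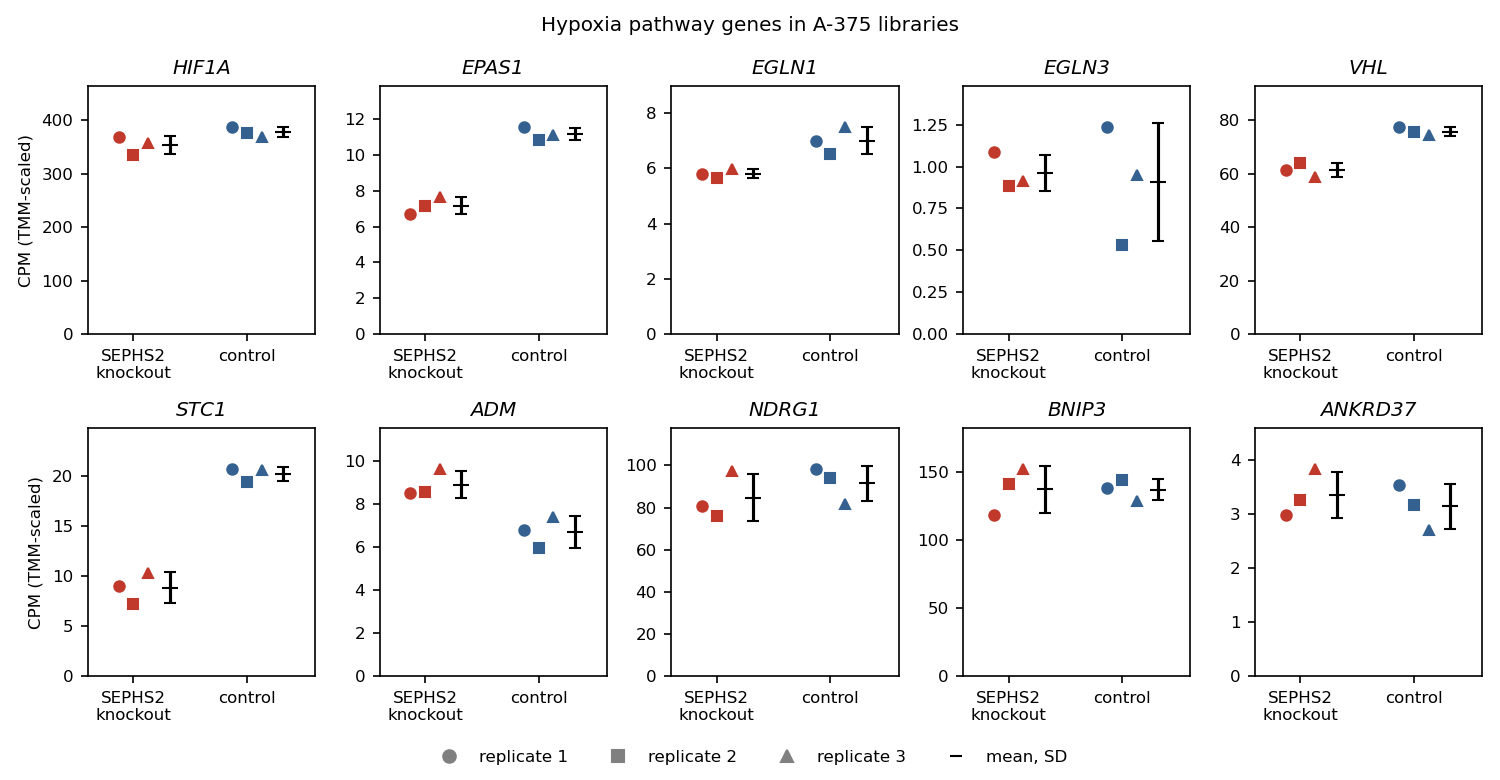
CPM of each hypoxia pathway gene in the 3 libraries labelled SEPHS2 knockout (red, left) and the 3 control libraries (blue, right), on a linear axis from 0. Symbols mark the replicate numbers and the bar the mean with SD; the groups stand apart for EPAS1, EGLN1, VHL, STC1 and ADM and overlap for the others.

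The alpha subunits were far apart in level. HIF1A, the widely expressed form (chromosome 14, 61695513 to 61748258, GRCh38.p14, as for every position here), had 369, 335 and 357 CPM in the libraries labelled knockout, against 387, 377 and 369 CPM in controls. Knockout replicate 2 was the lowest library and knockout replicate 1 lay within the control range, so the groups overlap. Its log2 fold change was -0.09 (SE 0.04, 95% interval -0.18 to -0.0045, edgeR adjusted p = 0.0821), and its call depended on the setting. It passed with at least 1 CPM required in 3 libraries (-0.11, edgeR adjusted p = 0.0429), with the replicate number as a block (-0.10, edgeR adjusted p = 0.0496), with the length and GC trend removed (-0.11, edgeR adjusted p = 0.0319) and without knockout replicate 1 (-0.13, edgeR adjusted p = 0.0183).

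EPAS1, which encodes HIF-2 alpha and is known best from endothelium and kidney (chromosome 2, 46297407 to 46386697), had 6.71, 7.15 and 7.65 CPM in the libraries labelled knockout. Controls had 11.6, 10.9 and 11.1 CPM. Every library labelled knockout was below every control, and the fall was 0.641-fold (log2 fold change -0.64, SE 0.09, edgeR adjusted p = 7.12e-06). The call held in all 14 alternative fits, with values from -0.69 to -0.47.

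Within each library, HIF1A had 54.9, 46.8 and 46.6 times the reads of EPAS1 in the libraries labelled knockout, against 33.5, 34.7 and 33.0 times in controls. This ratio needs no scaling between libraries. The 2 sets of ratios do not overlap, and the log2 ratio differed by 0.55 (exact permutation test, two-sided, p = 0.1, the smallest that 3 against 3 libraries can give). In RPKM, which scales reads by exon length and library size, HIF1A averaged 68.7 ± 3.39 in the libraries labelled knockout and 73.3 ± 1.79 in controls. EPAS1 averaged 0.982 ± 0.0645 RPKM in the libraries labelled knockout and 1.53 ± 0.0470 RPKM in controls (SD, n = 3 each).

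**Figure D2:**
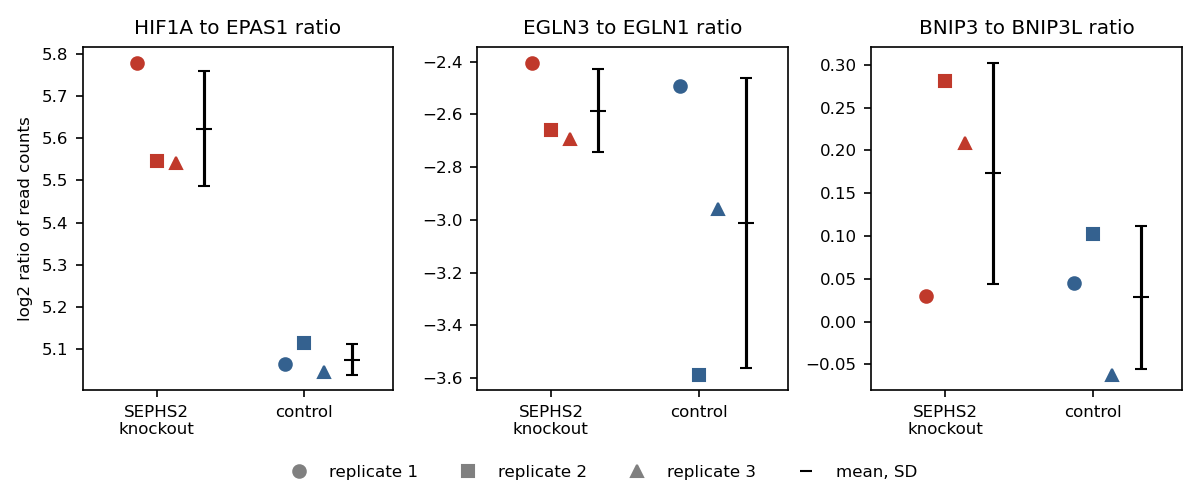
Log2 ratio of the read counts of 3 gene pairs within each library, in libraries labelled SEPHS2 knockout (red, left) and controls (blue, right), with the mean and SD beside the points; the vertical axes differ and do not start at 0. HIF1A to EPAS1 is higher in all libraries labelled knockout, and the other pairs overlap between groups.

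Of the prolyl hydroxylases, EGLN1, which in most cells sets HIF-1 alpha levels in normal oxygen (chromosome 1, 231363756 to 231422287), had 5.80, 5.64 and 5.97 CPM in the libraries labelled knockout, from 198, 243 and 242 reads. Controls had 7.0, 6.54 and 7.49 CPM, from 295, 270 and 299 reads. The groups did not overlap, and the log2 fold change was -0.27 (SE 0.11, edgeR adjusted p = 0.0466). That call is at the edge of the threshold. It held without control replicate 2 and failed without each of the other 5 libraries (edgeR adjusted p = 0.0597 to 0.155), with DESeq2 (adjusted p = 0.0970), without a low-count filter (edgeR adjusted p = 0.0503) and with the length and GC trend removed (edgeR adjusted p = 0.117).

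EGLN3, the hydroxylase that is itself strongly induced by hypoxia (chromosome 14, 33924227 to 33951074), was the least abundant of the 10 genes. It had 37, 38 and 37 reads in the libraries labelled knockout and 52, 22 and 38 reads in controls, or 1.08, 0.882 and 0.913 CPM against 1.23, 0.533 and 0.952 CPM. The control libraries spanned all the knockout values. The log2 fold change was 0.08 with a 95% interval from -0.57 to 0.73 (edgeR adjusted p = 0.867), the widest interval of the 10 genes. Its ratio to EGLN1 was 0.189, 0.158 and 0.155 in the libraries labelled knockout and 0.178, 0.0832 and 0.129 in controls (log2 difference 0.43, exact permutation test, two-sided, p = 0.3, n = 3 each). That difference was 0.14 without control replicate 2 and 0.69 without control replicate 1 (exact p = 0.6 and 0.1).

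EGLN2, the third hydroxylase of the family, was held in the machinery list. It had a log2 fold change of -0.01 with a 95% interval of -0.17 to 0.15 (edgeR adjusted p = 0.928), and became 0.20 (edgeR adjusted p = 0.0345) under removal of the length and GC trend. Of its exon bases, 30.6% are shared with the read-through gene RAB4B-EGLN2 in GENCODE v29, and the treatment of such reads is not given.

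VHL, the substrate receptor of the ligase and a kidney tumour suppressor (chromosome 3, 10141778 to 10153667), had 61.5, 64.1 and 58.7 CPM in the libraries labelled knockout, against 77.4, 75.7 and 74.3 CPM in controls. Every library labelled knockout was below the lowest control, and the fall was 0.811-fold (log2 fold change -0.30, SE 0.05, edgeR adjusted p = 1.72e-05). It was called in all 14 alternative fits, from -0.33 to -0.27.

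**Figure D3:**
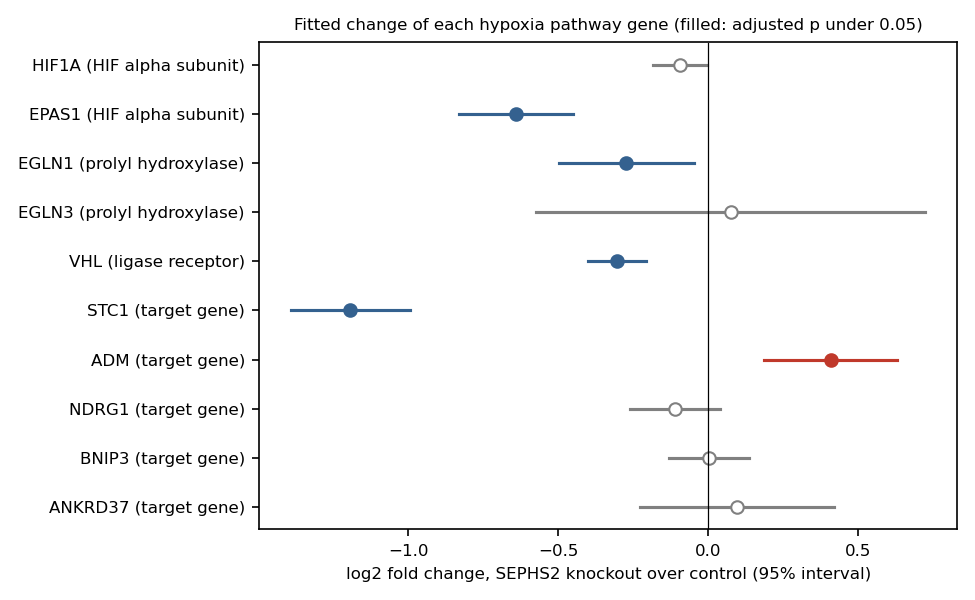
Log2 fold change of each hypoxia pathway gene, libraries labelled SEPHS2 knockout over control, with its 95% interval from the edgeR fit, ordered by role from the alpha subunits at the top to the targets. Filled points passed an adjusted p under 0.05: STC1 lies farthest to the left at -1.19, ADM is the only filled point to the right at 0.41, and EGLN3 has the widest interval.

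Promoter sequences from RefSeq (GRCh38.p14, 250 bases before to 50 after the start of transcription) are shown for 4 of the genes because their start regions hold the core letters that HIF binds, while their mRNAs differed in what they did. ADM rose, EGLN1 was called lower, and ANKRD37 and BNIP3 did not pass the test. The windows are chr4:185396591-185396890 on the plus strand for ANKRD37, chr10:131981874-131982173 on the minus strand for BNIP3, chr11:10304823-10305122 on the plus strand for ADM and chr1:231422238-231422537 on the minus strand for EGLN1. Capitals mark ACGTG or GCGTG on either strand, read 5′ to 3′ along the gene.
ANKRD37: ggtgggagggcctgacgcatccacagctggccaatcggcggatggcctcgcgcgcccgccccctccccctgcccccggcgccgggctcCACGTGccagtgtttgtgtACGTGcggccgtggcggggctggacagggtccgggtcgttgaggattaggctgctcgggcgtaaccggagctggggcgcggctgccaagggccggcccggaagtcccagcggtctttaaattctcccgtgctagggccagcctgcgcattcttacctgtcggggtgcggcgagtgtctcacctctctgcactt
BNIP3: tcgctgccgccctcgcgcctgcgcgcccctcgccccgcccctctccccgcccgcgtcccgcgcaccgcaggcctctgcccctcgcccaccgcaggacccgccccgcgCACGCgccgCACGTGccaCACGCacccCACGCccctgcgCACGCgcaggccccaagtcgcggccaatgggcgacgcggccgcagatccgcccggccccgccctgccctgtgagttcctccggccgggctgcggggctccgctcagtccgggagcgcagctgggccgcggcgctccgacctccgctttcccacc
ADM: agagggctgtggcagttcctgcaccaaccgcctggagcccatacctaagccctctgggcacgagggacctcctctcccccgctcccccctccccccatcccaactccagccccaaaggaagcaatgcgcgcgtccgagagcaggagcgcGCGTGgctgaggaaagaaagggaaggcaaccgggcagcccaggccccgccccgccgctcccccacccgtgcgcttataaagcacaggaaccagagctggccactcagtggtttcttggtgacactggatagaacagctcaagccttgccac
EGLN1: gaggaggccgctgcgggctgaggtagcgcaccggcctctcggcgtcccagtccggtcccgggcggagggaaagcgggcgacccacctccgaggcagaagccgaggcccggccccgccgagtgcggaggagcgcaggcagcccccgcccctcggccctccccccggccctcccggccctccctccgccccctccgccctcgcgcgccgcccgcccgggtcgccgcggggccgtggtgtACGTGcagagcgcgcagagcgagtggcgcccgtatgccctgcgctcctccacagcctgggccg

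The ANKRD37 window held 3 matches to ACGTG, of which 2 lie on opposite strands over the same letters, CACGTG, at -162 to -157 from the start. The BNIP3 window held 6 matches, 2 to ACGTG on opposite strands at -134 to -129 and 4 to GCGTG on the opposite strand between -143 and -100. ADM held 1 GCGTG at -101 to -97 and EGLN1 1 ACGTG at -13 to -9. The table held windows for 7 of the 10 genes, and those for VHL, STC1 and NDRG1 are not shown. At least 1 match was present for 6 of the 7, in 1 of the 2 windows of HIF1A and in that of EPAS1 but not in that of EGLN3. Among all 35116 windows 48.4% held at least 1 of the motifs, 21.4% ACGTG and 36.5% GCGTG, and 23.1% had at least 2 matches. A match here is a description of letters and not a measured binding site.

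Among the targets, STC1 changed most. Stanniocalcin 1, the secreted glycoprotein it encodes, is known for roles in calcium and phosphate handling (chromosome 8, 23841929 to 23854806). Its level was 9.02, 7.24 and 10.3 CPM in the libraries labelled knockout, against 20.7, 19.4 and 20.6 CPM in controls. Every library labelled knockout held less than every control, and the fall was 0.437-fold (log2 fold change -1.19, SE 0.09, edgeR adjusted p = 1.60e-09). Over all 14 alternative fits it ranged from -1.32 to -1.06 and was called each time.

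ADM, which encodes the vasodilator peptide adrenomedullin (chromosome 11, 10305073 to 10307397), went the other way. It had 8.49, 8.57 and 9.60 CPM in the libraries labelled knockout, against 6.76, 5.93 and 7.39 CPM in controls. All 3 libraries labelled knockout exceeded the highest control. The rise was 1.33-fold (log2 fold change 0.41, SE 0.11, edgeR adjusted p = 0.00339), called in all 14 alternative fits with values from 0.33 to 0.48.

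NDRG1, a hypoxia- and stress-induced gene known as a metastasis suppressor (chromosome 8, 133237175 to 133297252), had 80.6, 76.1 and 97.5 CPM in the libraries labelled knockout, against 98.2, 94.3 and 81.9 CPM in controls. Knockout replicate 3 lay among the higher controls and control replicate 3 near the lower knockout values, so the groups overlapped. Its log2 fold change was -0.11 (95% interval -0.26 to 0.04, edgeR adjusted p = 0.235). It was called lower without knockout replicate 3 (-0.22, edgeR adjusted p = 0.00709) or control replicate 3 (-0.19, edgeR adjusted p = 0.0448), and turned to 0.16 with the length and GC trend removed (edgeR adjusted p = 0.0632).

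BNIP3, a mitochondrial outer membrane receptor for the removal of mitochondria by autophagy (chromosome 10, 131967684 to 131981923), had 119, 141 and 152 CPM in the libraries labelled knockout, against 138, 144 and 129 CPM in controls. Knockout replicate 1 was the lowest library and knockout replicate 3 the highest. The log2 fold change was 0.0034 (SE 0.06), with a 95% interval of -0.13 to 0.14 (edgeR adjusted p = 0.974). Its paralog and partner in the same process, BNIP3L, fell to 121 ± 8.81 CPM in the libraries labelled knockout, against 134 ± 0.159 CPM in controls (log2 fold change -0.15, edgeR adjusted p = 0.0159), which did not pass without knockout replicate 1 (edgeR adjusted p = 0.0535) or knockout replicate 2 (edgeR adjusted p = 0.0899). BNIP3 had 1.02, 1.22 and 1.16 times the reads of BNIP3L in the libraries labelled knockout and 1.03, 1.07 and 0.958 times in controls (log2 difference 0.14, exact permutation test, two-sided, p = 0.3, n = 3 each), and the difference was 0.091 without knockout replicate 2 (exact p = 0.5). GENCODE v29 lists 39 processed pseudogenes of BNIP3, and 19 of them share 210 to 318 reads per library in the table, so the BNIP3 count is uncertain to the extent that reads were split among them.

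ANKRD37, which encodes a small ankyrin repeat protein and is a sensitive hypoxia marker (chromosome 4, 185396841 to 185400723), had 2.99, 3.25 and 3.82 CPM in the libraries labelled knockout, against 3.54, 3.17 and 2.71 CPM in controls. The ranges overlap, with a library labelled knockout highest and a control lowest. The log2 fold change was 0.10 with a 95% interval of -0.23 to 0.42 (edgeR adjusted p = 0.649). UFSP2 on the opposite strand shares 35.2% of the ANKRD37 exon bases, and since the strand setting is not given their reads cannot be told apart. UFSP2 itself averaged 32.1 CPM in the libraries labelled knockout and 32.6 CPM in controls (log2 fold change -0.02, edgeR adjusted p = 0.806).

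Set in order of RPKM, the genes ran HIF1A, BNIP3, VHL, NDRG1, ADM, STC1, ANKRD37, EPAS1, EGLN1 and EGLN3 in the libraries labelled knockout. In controls STC1 stood above ADM and EPAS1 above ANKRD37, with the rest of the order the same. No neighbours in either order overlapped across their 3 libraries. ADM averaged 3.27 ± 0.227 RPKM in the libraries labelled knockout and 2.46 ± 0.269 RPKM in controls. STC1 averaged 2.14 ± 0.372 RPKM in the libraries labelled knockout and 4.87 ± 0.177 RPKM in controls (SD, n = 3 each). EGLN1 averaged 0.799 ± 0.0227 RPKM in the libraries labelled knockout and 0.965 ± 0.0655 RPKM in controls. These levels rest on GENCODE v29 exon lengths, and the gene models and rules for shared reads behind the counts are not given, so places in the order are uncertain to that extent.

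The 20 protein-coding genes directly beside the 10 were read to see whether a call was shared along the chromosome. Of 17 tested, 3 were higher (SNAPC1, TSNAX and SPTSSA) and 2 lower (IRAK2 and ST3GAL1), beside 22% and 23.4% of all tested genes. IRAK2, next to VHL, was the 1 neighbour called in the direction of its called partner, at 5.86 CPM in the libraries labelled knockout and 15.2 CPM in controls (log2 fold change -1.37, edgeR adjusted p = 6.74e-11). BRK1 on the other side of VHL had 0.11 (edgeR adjusted p = 0.0570). The tested neighbours of EPAS1, STC1 and ADM did not pass, and TSNAX beside EGLN1 was higher by 0.15 (edgeR adjusted p = 0.0110).

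Other parts of the HIF pathway moved modestly and in both directions. Of 15 listed machinery genes 13 were tested, with 3 higher, 5 lower, a median of -0.01 on the log2 scale and no change of 1.5-fold or more (61.5% called, beside 45.4% of all tested genes). The balance of directions depended on the setting. With the length and GC trend removed 7 were higher and 1 lower, where all genes split into 5283 higher and 2473 lower. Without control replicate 2 there were 4 higher and 4 lower. HIF3A is not listed in the table, and P4HTM, with 0 to 3 reads per library, was left out by the filter. The 3 called higher, ELOC, CUL2 and ELOB, encode parts of the ligase that VHL serves. ELOB had the weakest call (log2 fold change 0.13, edgeR adjusted p = 0.0382), and shares 16.8% of its exon bases with SRRM2 on the opposite strand. With DESeq2, and without knockout replicate 1, knockout replicate 2 or control replicate 1, ELOC and CUL2 were the only 2 called higher. ELOC, which encodes elongin C, rose to 121 ± 2.37 CPM in the libraries labelled knockout, against 97.7 ± 4.02 CPM in controls (log2 fold change 0.31, edgeR adjusted p = 6.28e-06). CUL2, its cullin scaffold, had a log2 fold change of 0.15 (edgeR adjusted p = 0.00931) and missed the threshold when control replicate 3 was left out (edgeR adjusted p = 0.0511). RBX1, the ring subunit, had 0.08 (edgeR adjusted p = 0.278).

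The 5 called lower were ARNT, ARNT2, CITED2, CREBBP and EP300, the partner subunits, coactivators and a competitor of the alpha subunits. ARNT, the shared partner subunit, averaged 56.7 ± 1.63 CPM in the libraries labelled knockout and 63.6 ± 0.608 CPM in controls (log2 fold change -0.17, edgeR adjusted p = 0.00471). ARNT2, its paralog, fell by 0.28 on the log2 scale (edgeR adjusted p = 5.13e-04). Both calls were lost with the length and GC trend removed (edgeR adjusted p = 0.206 for ARNT and 0.152 for ARNT2). CITED2, which competes with the factor for its coactivators and is itself a HIF target, fell to 18.1 ± 0.809 CPM in the libraries labelled knockout, against 22.9 ± 1.67 CPM in controls (log2 fold change -0.34, edgeR adjusted p = 2.70e-04). The coactivator CREBBP was lower by -0.17 (edgeR adjusted p = 0.00417), but turned to 0.16 (edgeR adjusted p = 0.00376) with that trend removed. HIF1AN, which blocks coactivator binding, had -0.03 (edgeR adjusted p = 0.621) and turned to 0.22 (edgeR adjusted p = 9.24e-05) under the same correction. SIAH2, a ligase for the hydroxylases, had 0.14 (edgeR adjusted p = 0.0956), called without control replicate 2 (0.19, edgeR adjusted p = 0.0364) and with the trend removed (0.20, edgeR adjusted p = 0.0118).

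**Figure D4:**
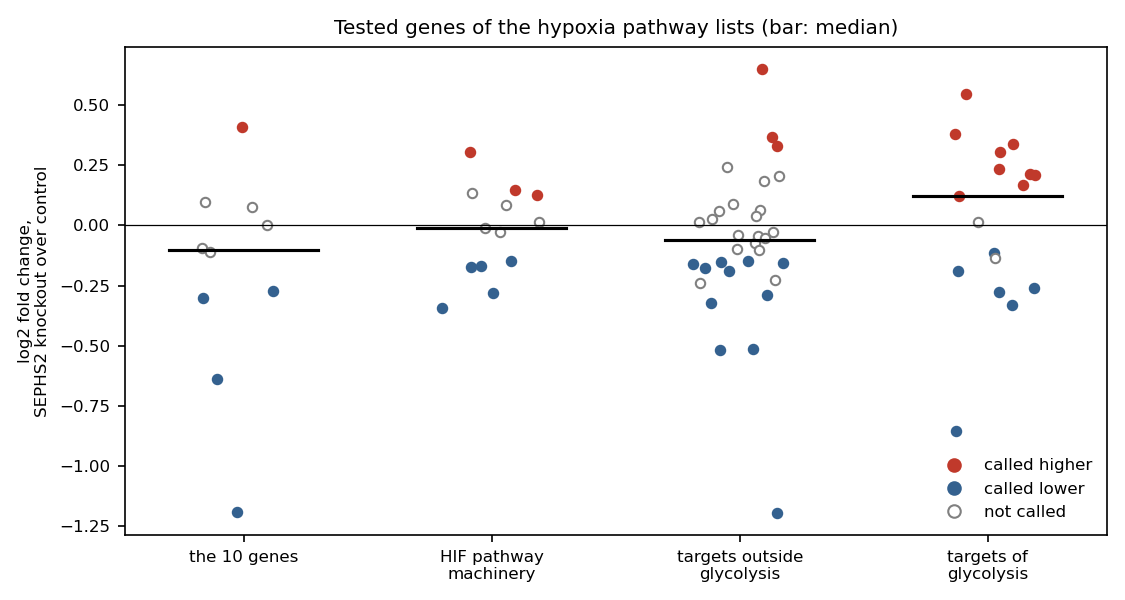
Log2 fold change, libraries labelled SEPHS2 knockout over control, of the tested genes among the 10 hypoxia pathway genes, the HIF machinery, the targets outside glycolysis and the targets of glycolysis; each point is a gene, filled where called, and the bar is the list's median. The medians are -0.10, -0.01, -0.06 and 0.12, and the first 3 lists hold more genes called lower than higher; with the length and GC trend removed this held for the 10 genes only.

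Of 37 further HIF targets outside glycolysis, 32 were tested, with 3 higher, 11 lower and 18 not called (43.8% called, beside 45.4% of all tested genes). The median log2 fold change was -0.06. With the length and GC trend removed, which put the median of all genes at 0.09, 6 were higher and 5 lower. Without knockout replicate 1 there were 4 higher and 7 lower. The transcriptional repressors BHLHE40 and MXI1 fell by 0.52 and 0.51 on the log2 scale (edgeR adjusted p = 6.71e-08 and 1.15e-06). KDM4B, a histone demethylase, was lower by -0.32 (edgeR adjusted p = 8.86e-05), but had 0.057 (edgeR adjusted p = 0.390) with the length and GC trend removed.

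DDIT4, an inhibitor of mTORC1 signalling that is also a target of ATF4 and p53, rose to 187, 184 and 168 CPM in the libraries labelled knockout, against 113, 114 and 116 CPM in controls (log2 fold change 0.65, edgeR adjusted p = 1.70e-10). Of its exon bases 41.2% are shared with an antisense gene. GBE1, the glycogen branching enzyme, rose by 0.33 (edgeR adjusted p = 2.12e-06). PLOD2, P4HA1 and ERO1A, which act in collagen and disulfide processing, were the most abundant that did not pass, at 0.06, -0.10 and 0.03 (edgeR adjusted p = 0.238, 0.125 and 0.655). P4HA1 was called without knockout replicate 3 (-0.15, edgeR adjusted p = 0.0309) and with the trend removed (-0.13, edgeR adjusted p = 0.0239). EPO is not listed in the table, and CA12, PPP1R3C, CXCR4 and EDN1 had 0 to 6 reads per library and were left out by the filter.

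Of 17 HIF targets of glucose uptake and glycolysis, 9 were higher, 6 lower and 2 not called (88.2% called, beside 45.4% of all tested genes). The median was 0.12, and 1 of the 17 changed by 1.5-fold or more. DESeq2 called 12 of the 17, beside 34.2% of all genes with an adjusted p. The fit without control replicate 1 called 11, beside 36.9%. With the length and GC trend removed 11 were higher and 2 lower, where all genes split into 5283 higher and 2473 lower. Without knockout replicate 3 there were 7 each way, and without control replicate 3 there were 6. SLC2A1, ENO1, LDHA and GPI rose by log2 fold changes of 0.55, 0.38, 0.31 and 0.24 (edgeR adjusted p = 1.92e-09, 1.11e-07, 1.55e-06 and 1.28e-04). PFKFB3 and PFKFB4, whose products set the level of a phosphofructokinase activator, fell by 0.86 and 0.33 on the log2 scale (edgeR adjusted p = 5.19e-13 and 1.99e-05). Under removal of that trend GPI had 0.53 and PFKFB4 -0.18, both still called (edgeR adjusted p = 4.09e-10 and 0.00580). HK2 (0.01, edgeR adjusted p = 0.830) and ALDOC (-0.14, edgeR adjusted p = 0.229) did not pass. HK2 was called with the trend removed (0.12, edgeR adjusted p = 0.0229), and ALDOC without knockout replicate 3 (-0.27, edgeR adjusted p = 0.00786). ALDOA, called higher, averaged only 5.29 CPM in the libraries labelled knockout and 4.16 CPM in controls (0.34, edgeR adjusted p = 0.0390). Of its exon bases 42.3% are shared with AC093512.2 on the same strand, and the treatment of such reads is not given.

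The members' count can be read against the same background in the other fits. With DESeq2 4 of the 10 were called beside 34.2% of all genes with an adjusted p, with no low-count filter 4 beside 35.7%, with at least 1 CPM in 3 libraries 6 of the 9 tested beside 51.1%, and with the replicate number as a block 6 beside 46%. RLE factors gave 5 beside 45.3%, limma-voom 5 beside 45.1% and removal of the length and GC trend 5 beside 50.7%. Leaving out knockout replicate 1, 2 or 3 gave 5, 4 and 5 beside 43%, 39.8% and 42%, and leaving out control replicate 1, 2 or 3 gave 4, 5 and 5 beside 36.9%, 39.8% and 40.6%. EPAS1, VHL, STC1 and ADM were among those called each time.

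The targets also varied among libraries of the same group. All 5 target genes among the 10 were highest in knockout replicate 3 of the libraries labelled knockout, as were 29.3% of all tested genes. Of the 32 other tested targets outside glycolysis, 26 had their highest knockout value there, whereas for glycolysis it was 8 of 17 and for the machinery 2 of 13. Replicate 3 was above replicate 1 for 27 of the 32 in the libraries labelled knockout and for 14 in controls. Among all tested genes this held for 47.2% and 50.4%. Of the 5 target genes, control replicate 3 was above control replicate 1 for 1. CA9, carbonic anhydrase 9, had 1.44, 2.83 and 5.35 CPM in knockout replicates 1 to 3, against 3.06, 2.95 and 2.40 CPM in controls. MIR210HG, the host transcript of a hypoxia-induced microRNA, had 2.78, 4.90 and 5.23 CPM in the libraries labelled knockout, against 4.91, 4.24 and 4.23 CPM in controls. ARHGEF39 on the opposite strand shares 38.5% of the CA9 exon bases. CA9 and MIR210HG are named because of this spread, after their values were seen, and knockout replicate 3 was singled out in the same way.

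**Figure D5:**
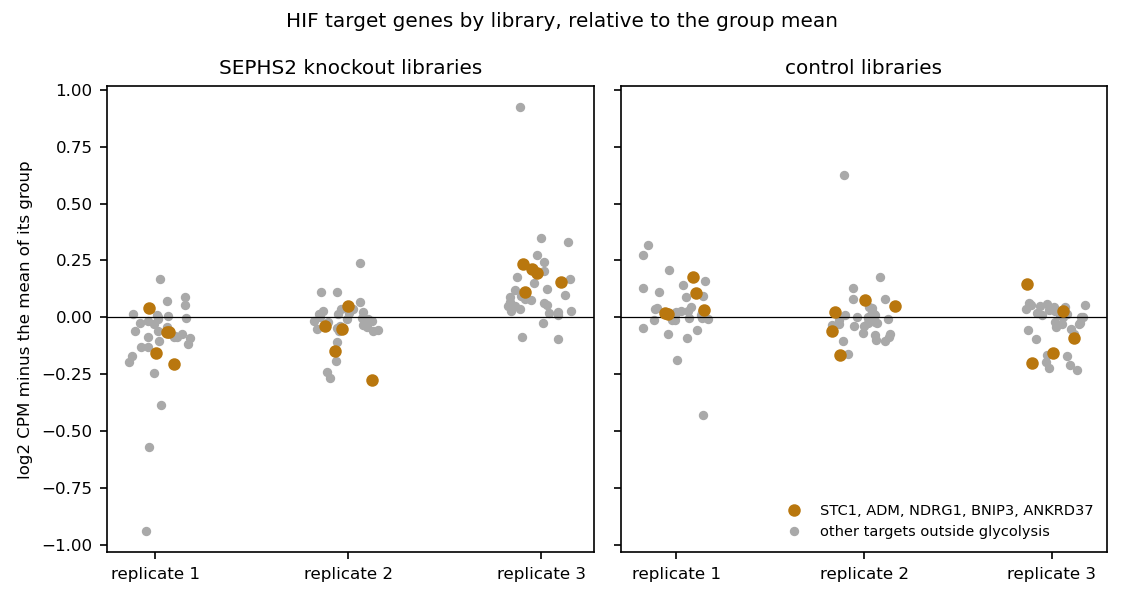
Log2 CPM of HIF target genes outside glycolysis minus the mean of the gene in its own group, by library, for libraries labelled SEPHS2 knockout (left) and controls (right); each point is a gene, and replicates have no order. The points of STC1, ADM, NDRG1, BNIP3 and ANKRD37 are all above 0 in knockout replicate 3.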

How the data were processed

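Raw counts of reads per gene symbol for the 6 libraries are used as the authors deposited them. The submitters' processing notes name FastQC 0.12.1, SAMtools 1.21, HISAT2 2.2.1, GRCh38 and, from Subread, featureCounts 2.0.6; annotation and strand settings were not given in the sources used here.

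All genes of this table were fitted with edgeR 4.0.16 under R 4.3.3: TMM factors, the default expression filter by group (4721 symbols left out), the two-sided quasi-likelihood test, and Benjamini-Hochberg adjustment over 16910 genes, called under 0.05. Fold changes set libraries labelled knockout over controls. RPKM used the union of GENCODE v29 exons, and ratios added 0.5 reads to each count.

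Other fits used RLE or upper-quartile factors, other filters, DESeq2 1.42.0, limma-voom (limma 3.58.1), a replicate block, 1 library left out, and a loess correction for exon length and GC content, known for 90.5% of tested genes. No replicates were merged, since each pair differed by more than counting noise (chi-square per degree of freedom 4.55 to 7.06). A run of the fit on simulated data (16668 genes) had 200 genes set to change, and 9 of its 154 calls were false. There the fit recovered 42% of genes changed by 1.2-fold and 72.9% of those changed by 1.5-fold. Recovery with as large a share of genes changed as the 45.4% called here was not tested.

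The 10 genes and the lists were chosen with earlier results of these data known. ELOB and EP300, which complete counts, and ALDOA, for its shared exon bases, were named after their values were seen. By rule, named genes are the 10, SEPHS2, BNIP3L, EGLN2, direct neighbours and list genes under the filter. From each list, the rule adds up to 6 called by smallest adjusted p and the 3 most abundant not called. A gene this rule would name is not reported here.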

Additional observations from a re-analysis of the deposited data

How the results depend on the processing

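The count of the 10 genes called was 4 with DESeq2 or with no low-count filter, 6 with at least 1 CPM in 3 libraries, 5 in the other refits with all libraries except the replicate block, and 4 to 5 with 1 library left out. All genes called numbered 6339 to 7411 with 1 library left out, against 7673. EPAS1, VHL, STC1 and ADM were called in the same direction in all 14 alternatives.

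The replicate numbers pair no samples by any label, and same-numbered libraries did not deviate together (correlations 0.01, -0.09 and -0.25). With the replicate block 7774 genes and 6 of the 10 were called, HIF1A being added (-0.10, edgeR adjusted p = 0.0496), and the log2 difference of the HIF1A to EPAS1 ratio stayed 0.55.

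Values that turned sign were mostly near 0. BNIP3 had -0.0027 with RLE, -0.0017 with upper-quartile factors, -0.0071 with at least 1 CPM, -0.0033 with DESeq2, -0.0012 with limma-voom and -0.0025 with the replicate block. With 1 library left out, BNIP3 ran from -0.074 to 0.098, ANKRD37 from -0.0061 to 0.19, EGLN3 from -0.19 to 0.37, EGLN2 from -0.030 to 0.015 and HK2 from -0.030 to 0.056. With the length and GC trend removed, NDRG1 had 0.16, CREBBP 0.16, HIF1AN 0.22, KDM4B 0.057 and EGLN2 0.20, where the median of all genes was 0.09. The cause was not tested. EGLN3 gave no value with at least 1 CPM required, since it falls under that filter. Depth limits EGLN3, ANKRD37 and EGLN1 most.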
